A study of Drosophila melanogaster with 6 samples.

Results

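Complex I (NADH:ubiquinone oxidoreductase) genes were taken from the deposited table by symbol, ND- for genes in the nucleus and mt:ND for genes of the mitochondrial genome. The rule found 47 genes of the 14026 in the table, 40 nuclear and 7 mitochondrial, and used no measured value. RNA came from the midgut of adult wild-type Oregon-R Drosophila melanogaster, in 3 groups of 2 libraries. The Pe day 3 flies had been given Pe and were 7 to 8 days old. The Pe day 0 flies had also been given Pe and were 4 to 5 days old, and the Mock day 0 flies had been given sucrose at the same age of 4 to 5 days. The labels do not spell out Pe, and they name no sucrose group at the older age, so in the comparison of Pe day 3 with Mock the treatment, the day and the age cannot be told apart. The design text places the series in the study of how regeneration of the midgut starts and ends.

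Complex I is the entry point of electrons from NADH into the respiratory chain. It passes them to ubiquinone along a matrix arm and pumps protons through a membrane arm. The core of the matrix arm is encoded in the nucleus, the core of the membrane arm in the mitochondrial genome, and nuclear accessory subunits surround both. The products of the nuclear and mitochondrial genes thus have to meet in one assembly, which is why their messenger RNAs are set against each other here.

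The deposited table holds comparisons and no value of any single library. For Pe day 0 and for Pe day 3, each set against Mock, every gene has a log2 fold change, the standard error (SE) of that change and an adjusted p. The columns are not labelled by group, so the comparisons were told apart by the sequence in which the title of the table lists Mock and both Pe groups, and all directions depend on it. The level of a gene in a group was recovered from the deposited mean and both fold changes, as a normalized count (reads divided by the authors' size factor of a library), with an SE that comes from the model and not from the spread of the 2 libraries. Depth recovered in the same way was 17.6e6 to 20.1e6 reads per library. A gene was called at an adjusted p under 0.05. In RNA from whole midguts, fewer cells of a type and less RNA per cell cannot be told apart.

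With the authors' scale the messenger RNAs of complex I were lower at Pe day 0 than in Mock in both genomes, and at Pe day 3 they lay near Mock again. Of 35 tested nuclear members 32 fell and 0 rose at Pe day 0 on that scale, and of 7 mitochondrial members 5 fell and 0 rose, where 23.6% of all 10393 tested genes were lower and 23.0% higher. Among the 2666 genes whose mean reached 1000 normalized counts, which is closer to the abundance of these members, 47.4% were lower. At Pe day 3, 0 of 33 nuclear and 0 of 6 mitochondrial members were called against Mock in the authors' deposited table, where 8.92% of 8316 genes were lower and 8.75% higher. From Pe day 0 to Pe day 3, 31 of 33 nuclear and 6 of 6 mitochondrial members rose and 0 fell on the same scale, where 27.4% of 8316 genes were higher and 25.3% lower.

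The size of these changes depended on the scale, and most calls did not hold with library totals as the scale. Summed normalized counts of all genes were lower at Pe day 0 than in Mock (log2 ratio -0.67), and taking library totals as equal therefore moved every gene up by that amount, the median of all genes to 0.69 against 0.03 on the authors' scale. On library totals 5 nuclear members were lower and 3 higher of 35, and 2 mitochondrial members were lower of 7, where 8.97% of all genes were lower and 53.4% higher, and 21.0% of the genes that averaged 1000 or more were lower. From Pe day 0 to Pe day 3, 2 nuclear members were then higher and 2 lower of 33, and 1 mitochondrial member was higher of 6, where 9.36% of all genes were higher and 63.1% lower. As a share of all reads, the 40 nuclear members together held 0.389% at Pe day 3, 0.381% at Pe day 0 and 0.410% in Mock. The 7 mitochondrial members held 0.344% at Pe day 3, 0.326% at Pe day 0 and 0.383% in Mock. What no scale can alter is the position relative to other genes: minus the median of all genes, the median log2 fold change at Pe day 0 was -0.85 for 33 nuclear subunits (without paralogs) and -0.98 for the mitochondrial members. Relative to the genes that averaged 1000 or more, these differences were -0.57 and -0.70.

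**Figure D1:**
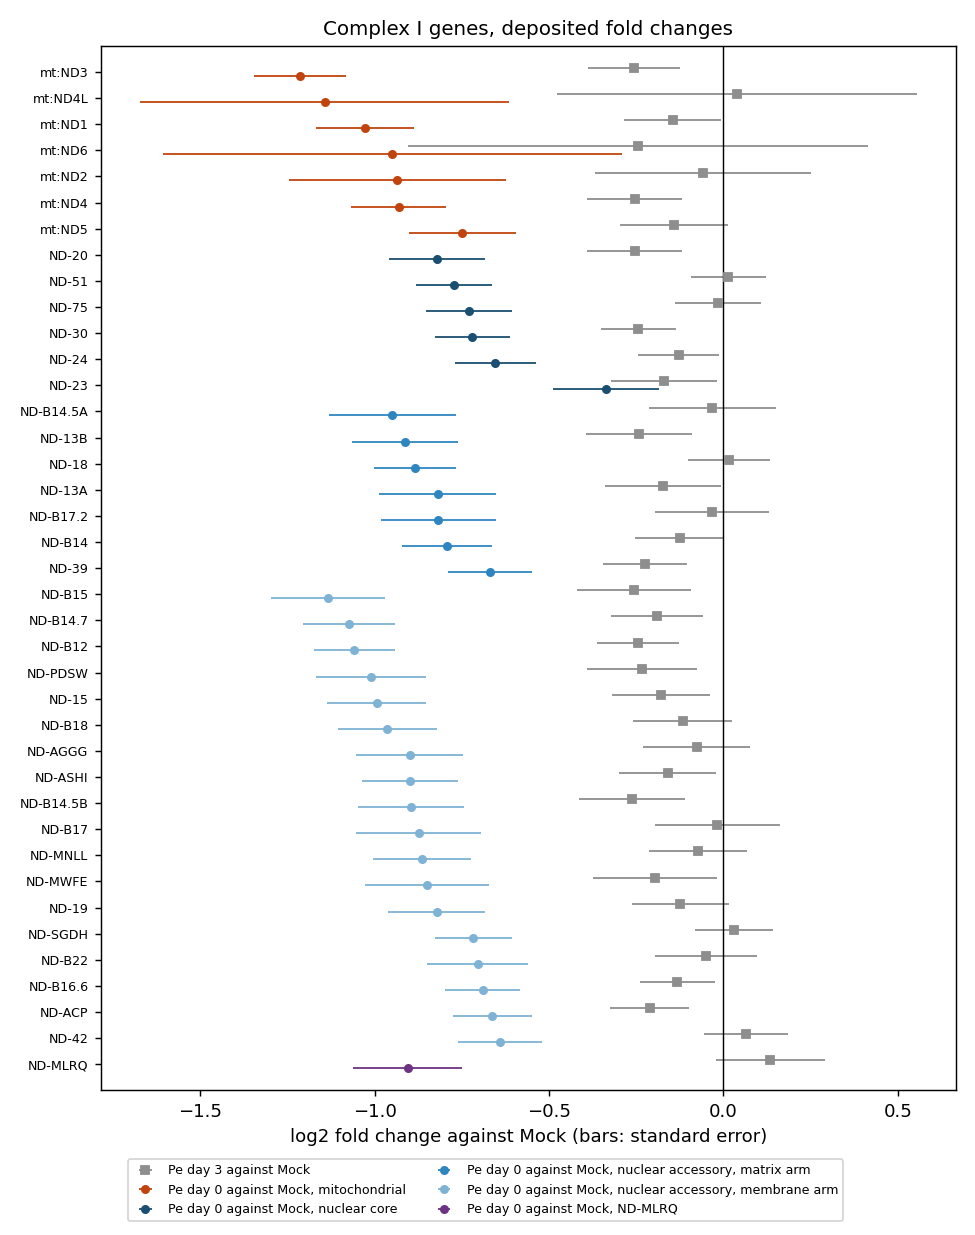
Log2 fold change against Mock with its SE for the 7 mitochondrial genes and 32 of the 33 nuclear genes that were tested in every comparison, by role, from the authors' deposited table. Squares (Pe day 3) lie between -0.26 and 0.13, and circles (Pe day 0) between -1.21 and -0.34 for the genes drawn. With library totals as the scale ND-23 (0.33), ND-42 (0.026), ND-24 (0.013) and ND-ACP (0.0039) are above 0 at Pe day 0.

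The 7 mitochondrial genes encode the hydrophobic core of the membrane arm. In the BDGP6.54 annotation mt:ND2 (240-1263), mt:ND3 (5608-5961) and mt:ND6 (9971-10495) lie on the plus strand of the mitochondrial genome, and mt:ND5 (6409-8125), mt:ND4 (8207-9545), mt:ND4L (9545-9835) and mt:ND1 (11721-12659) on the minus strand. mt:ND4 and mt:ND4L share 1 base, and reads that span it could be counted to either.

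mt:ND5 and mt:ND4, which with mt:ND2 resemble ion antiporters and form the proton-pumping part, had the most normalized counts. mt:ND5 stood at 28194 normalized counts at Pe day 3, 18508 at Pe day 0 and 31096 in Mock (model SE 2127, 1396 and 2346). Its log2 fold change at Pe day 0 was -0.75 (SE 0.15, adjusted p = 5.37e-06) in the authors' deposited table. No other mitochondrial member had so small a change, and on library totals the value was -0.08. mt:ND4 had 23195 normalized counts at Pe day 3, 14512 at Pe day 0 and 27669 in Mock, a log2 fold change at Pe day 0 of -0.93 (SE 0.14, adjusted p = 7.64e-11) in the authors' deposited table. mt:ND2, the third of them, was far lower at 808 normalized counts at Pe day 3, 440 at Pe day 0 and 841 in Mock, and its log2 fold change at Pe day 0 was -0.94 (SE 0.31, adjusted p = 0.00711) in the authors' deposited table, with a larger SE than the others.

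mt:ND1, which lines the quinone channel where both arms join, had 18152 normalized counts at Pe day 3, 9842 at Pe day 0 and 20070 in Mock. It fell by 1.03 at Pe day 0 (SE 0.14, adjusted p = 1.50e-12) in the authors' deposited table. mt:ND3, whose loop also reaches the quinone channel, had 4803 normalized counts at Pe day 3, 2473 at Pe day 0 and 5739 in Mock. It fell by 1.21 (SE 0.13, adjusted p = 4.57e-19) in the authors' deposited table, more than any other complex I gene, nuclear ones included. mt:ND1 and mt:ND3 were the only mitochondrial members still lower at Pe day 0 on library totals, at -0.36 (adjusted p = 0.0168) and -0.55 (adjusted p = 8.24e-05).

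The short genes mt:ND4L and mt:ND6, which sit between the antiporter-like subunits and the quinone channel, were close to the floor of the data. mt:ND4L was at 30 normalized counts at Pe day 3, 13.2 at Pe day 0 and 29.2 in Mock, with a log2 fold change at Pe day 0 of -1.14 (SE 0.53, adjusted p = 0.0640) in the authors' deposited table. mt:ND6 was at 20.1 normalized counts at Pe day 3, 12.4 at Pe day 0 and 23.9 in Mock, with a value of -0.95 (SE 0.66, adjusted p = 0.238) in the authors' deposited table. Neither passed the test at Pe day 0, and both estimates lay among or below those of the abundant mitochondrial genes. mt:ND6 was too low to be tested at Pe day 3. Whether the low counts of mt:ND4L and mt:ND6 reflect RNA levels or the assignment of reads to genes was not tested.

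All 6 tested mitochondrial members were higher at Pe day 3 than at Pe day 0 by a Wald test on the difference of both deposited fold changes. mt:ND3 rose by 0.96 (SE 0.13, adjusted p = 3.62e-12), mt:ND1 by 0.88 (SE 0.14, adjusted p = 1.63e-09) and mt:ND2 by 0.88 (SE 0.31, adjusted p = 0.0110) on the log2 scale. mt:ND4 rose by 0.68 (SE 0.14, adjusted p = 3.34e-06), mt:ND5 by 0.61 (SE 0.15, adjusted p = 0.000264) and mt:ND4L by 1.18 (SE 0.53, adjusted p = 0.0477). With no filter on low counts 5 of the 6 were called. On library totals 1 of the 6 was higher, mt:ND3 at 0.32 (adjusted p = 0.0227).

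In counts assigned per kilobase of transcript, the mitochondrial genes covered a far wider range than the nuclear ones. Their lowest and highest levels among the 6 genes tested throughout were 103 (mt:ND4L) and 19331 (mt:ND1) normalized counts per kilobase at Pe day 3, 45.4 (mt:ND4L) and 10838 (mt:ND4) at Pe day 0, and 100 (mt:ND4L) and 21374 (mt:ND1) in Mock. mt:ND6 was lower still, at 38.3 at Pe day 3, 23.5 at Pe day 0 and 45.4 in Mock. The 33 nuclear subunits spanned 1645 to 11740 at Pe day 3, 930 to 5711 at Pe day 0 and 1813 to 10697 in Mock. In Mock, the per-kilobase levels of mt:ND1 and mt:ND4 (20664) differed by less than their SEs, and mt:ND5 (18111) and mt:ND3 (16212) followed. mt:ND2 (822) stood well below them.

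**Figure D2:**
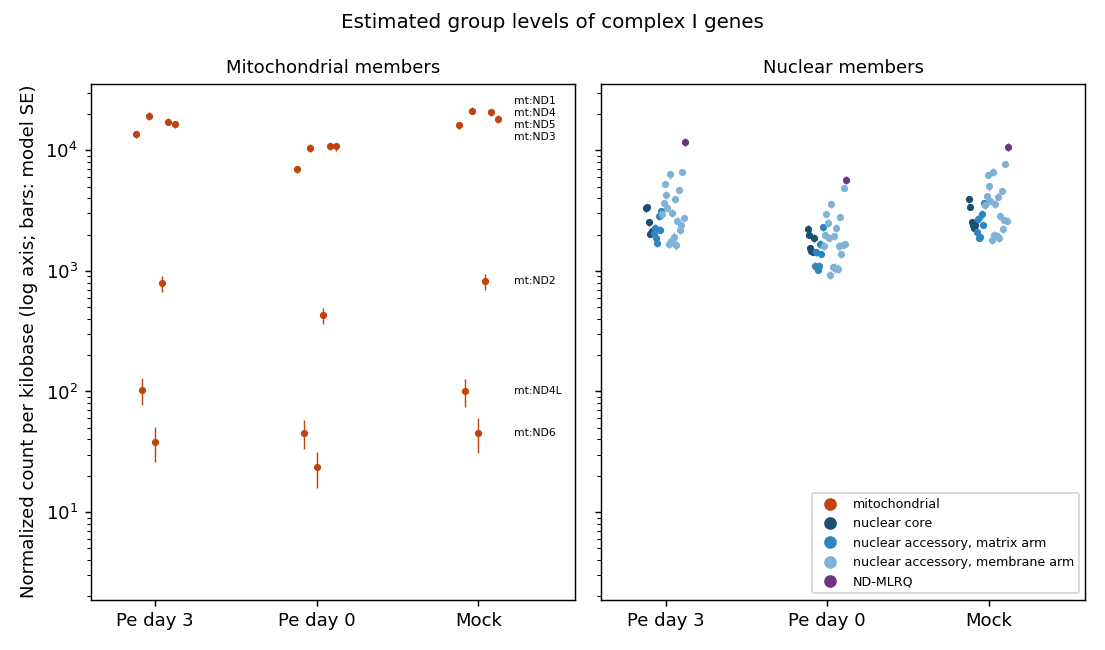
Estimated level per kilobase of transcript, from the counts assigned to each gene, on a log axis in Pe day 3, Pe day 0 and Mock, 1 point per gene with the model SE. mt:ND1, mt:ND3, mt:ND4 and mt:ND5 lie above all nuclear ones in each group, while mt:ND2, mt:ND4L and mt:ND6 lie below all of them.

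The 2 genomes were set against each other by the medians of their genes. At Pe day 0 the median log2 fold change against Mock was -0.95 for the 7 mitochondrial members (range -1.21 to -0.75) and -0.82 for 33 nuclear subunits without paralogs (lowest -1.13), a difference of -0.13 in the values of the authors' deposited table. The medians at Pe day 3 against Mock were -0.14 for 6 mitochondrial and -0.13 for 33 nuclear genes in the authors' deposited table, a difference of -0.01. From Pe day 0 to Pe day 3 the medians were 0.88 and 0.71, a difference of 0.17. These differences are the same on every scale. They were not tested, since genes of one library are not replicates.

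Of the mitochondrial genes at Pe day 0, mt:ND3 and mt:ND4L lay below all 33 nuclear subunits, mt:ND1 had 3 of them below it, mt:ND6 had 6, mt:ND2 and mt:ND4 had 7 each, and mt:ND5 had 22. The ratio of the summed normalized counts of the 7 mitochondrial genes to those of the 40 nuclear ones was 0.883 at Pe day 3, 0.856 at Pe day 0 and 0.934 in Mock. The ratio of the median levels per kilobase, over 6 mitochondrial and 33 nuclear genes, was 5.73 at Pe day 3, 5.23 at Pe day 0 and 6.33 in Mock. Both ratios were thus lowest at Pe day 0 and highest in Mock, by amounts for which no spread between libraries is held.

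The nuclear core subunits carry the flavin and the iron-sulfur clusters of the matrix arm. At Pe day 0, where 23.6% of all genes were lower, 6 of these 7 fell, at a median of -0.72. On library totals, where 8.97% of all genes were lower and 53.4% higher, 0 fell and 2 rose of the 7. ND-75 (human NDUFS1), the largest of them, had 6457 normalized counts at Pe day 3, 3940 at Pe day 0 and 6527 in Mock, and fell by 0.73 at Pe day 0 (SE 0.12, adjusted p = 2.13e-08) in the authors' deposited table. ND-51 (NDUFV1), which binds NADH and the flavin, had 5347 normalized counts at Pe day 3, 3099 at Pe day 0 and 5295 in Mock, and fell by 0.77 (SE 0.11, adjusted p = 6.39e-12) in the authors' deposited table. Its partner ND-24 (NDUFV2) was at -0.65 (SE 0.12, adjusted p = 9.47e-08), ND-30 (NDUFS3) at -0.72 (SE 0.11, adjusted p = 1.96e-10) and ND-20 (NDUFS7), which holds the last cluster before ubiquinone, at -0.82 (SE 0.14, adjusted p = 1.40e-08) in the authors' deposited table. These 5 genes lay close together, and all 5 rose from Pe day 0 to Pe day 3 (0 on library totals), by 0.48 (ND-30) to 0.79 (ND-51).

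The log2 fold change of ND-23 was closer to 0 than that of these 5 genes. ND-23 (NDUFS8), which holds a pair of iron-sulfur clusters and lies on 3R (15836048-15837117, minus strand), had 1740 normalized counts at Pe day 3, 1549 at Pe day 0 and 1957 in Mock, with a log2 fold change of -0.34 (SE 0.15, adjusted p = 0.0552) in the authors' deposited table. ND-42, the highest of the tested accessory subunits with an ND symbol, was at -0.64 in the authors' deposited table. CG11752, a complex I subunit gene with another symbol, was at -0.53 there. Between Pe day 3 and Pe day 0, ND-23 was not called either, at 0.17 (SE 0.15, adjusted p = 0.359).

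On library totals ND-23 is among the 2 core genes counted as higher. It was higher at Pe day 0 than in Mock by 0.33 (adjusted p = 0.0473), and at Pe day 3 against Pe day 0 it was lower, at -0.47 (adjusted p = 0.00319). On that scale 53.4% of all genes were higher at Pe day 0, and the median of all genes was 0.69. From Pe day 0 to Pe day 3, 63.1% of all genes were lower, with a median of -0.65. ND-23 thus moved less than the median gene in both comparisons on library totals. In CPM, a share of all reads, ND-23 stood at 79.5 at Pe day 3, 110 at Pe day 0 and 87.7 in Mock. ND-75, ND-51, ND-24, ND-30 and ND-20 were between -0.16 (ND-20) and 0.01 (ND-24) on that scale at Pe day 0, and 0 of those 5 were called.

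Accessory subunits of the matrix arm fell at Pe day 0 in 7 of 7 tested cases (0 on library totals), at a median of -0.82. Among them ND-B14.5A (NDUFA7) had 1360 normalized counts at Pe day 3, 720 at Pe day 0 and 1390 in Mock, and at -0.95 (SE 0.18, adjusted p = 8.95e-07) it was the lowest in the authors' deposited table. The highest was ND-39 (NDUFA9), which binds NADPH, at -0.67 (SE 0.12, adjusted p = 1.84e-07) in the authors' deposited table, with 4824 normalized counts at Pe day 3, 3548 at Pe day 0 and 5638 in Mock. ND-18 (NDUFS4), the subunit lost in a form of human Leigh syndrome, fell by 0.88 (SE 0.12, adjusted p = 5.67e-13) in the authors' deposited table. ND-18 at Pe day 3 had the highest value of these subunits against Mock, 0.02 (SE 0.12, adjusted p = 0.965), and ND-13B (NDUFA5) the lowest, -0.24 (SE 0.15, adjusted p = 0.332), in the authors' deposited table. All 7 rose from Pe day 0 to Pe day 3, by 0.44 (ND-39) to 0.92 (ND-B14.5A), and on library totals 1 of them did, ND-18 by 0.26 (adjusted p = 0.0359). ND-B8 (NDUFA2), the other accessory gene of this arm, averaged 0.44 normalized counts, and its exons overlap those of Gs1l on the opposite strand.

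Accessory subunits of the membrane arm fell in 18 of 18 cases (5 on library totals), at a median of -0.88, the lowest of the nuclear role groups of more than 1 gene. ND-B15 (NDUFB4) had 1411 normalized counts at Pe day 3, 767 at Pe day 0 and 1684 in Mock, and it fell by 1.13 (SE 0.16, adjusted p = 3.76e-11) in the authors' deposited table, the most of the nuclear genes. ND-B14.7 (NDUFA11) followed with 2605 normalized counts at Pe day 3, 1412 at Pe day 0 and 2973 in Mock, and fell by 1.07 (SE 0.13, adjusted p = 6.70e-15) in the authors' deposited table. At the other end were ND-42 (NDUFA10), with 3885 normalized counts at Pe day 3, 2382 at Pe day 0 and 3714 in Mock, and ND-ACP (NDUFAB1), the acyl carrier protein that also serves mitochondrial fatty acid synthesis. They were at -0.64 (SE 0.12, adjusted p = 4.46e-07) and -0.66 (SE 0.11, adjusted p = 3.09e-08) in the authors' deposited table. All 18 rose from Pe day 0 to Pe day 3 (0 on library totals), between 0.45 (ND-ACP) and 0.88 (ND-B14.7).

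On library totals, 5 of the 18 remained lower at Pe day 0, namely ND-B15 (-0.47), ND-B14.7 (-0.41), ND-B12 (-0.39), ND-PDSW (-0.34) and ND-15 (-0.33), with adjusted p between 0.00160 and 0.0474. Members of this arm at Pe day 3 lay between -0.26 (ND-B14.5B, SE 0.15, adjusted p = 0.269) and 0.07 (ND-42, SE 0.12, adjusted p = 0.816) in the authors' deposited table.

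ND-MLRQ carries an ND symbol, but its human counterpart NDUFA4 is now assigned to complex IV. It was the most abundant nuclear member per kilobase in each group, with 5154 normalized counts at Pe day 3, 2507 at Pe day 0 and 4696 in Mock. It fell by 0.91 at Pe day 0 (SE 0.16, adjusted p = 4.35e-08), and its value of 0.13 at Pe day 3 (SE 0.16, adjusted p = 0.671) was the highest of all members tested in the authors' deposited table. At 1.04 (SE 0.16, adjusted p = 2.22e-10) it also had the largest rise of a nuclear member from Pe day 0 to Pe day 3, and it remained higher on library totals (0.40, adjusted p = 0.0154).

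The comparison of Pe day 3 with Mock asks whether complex I messenger RNAs were still displaced after 3 days, and 0 of 39 tested members were called by the authors' DESeq2 test. At an unadjusted p under 0.05, 2 of 33 nuclear members were lower, ND-30 and ND-B12, and 0 were higher, and 0 of 6 mitochondrial members were either. Of all 8316 tested genes, 1100 were lower and 1111 higher at that threshold. The count of called members was also 0 with each other scale, filter and adjustment tried. Of the 33 nuclear members 28 had a value below 0, as did 5 of the 6 mitochondrial ones. The estimates do not show equality: with an SE of about 0.14 a shift as small as these medians could not have been called in a single gene.

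The paralogs whose symbols end in L, L1 or L2 had few or no reads. ND-20L, ND-24L and ND-B14.5AL are listed at a mean of 0, and ND-51L2 averaged 0.23 normalized counts. ND-51L1, a copy of the NADH-binding subunit gene, had 23.1 normalized counts at Pe day 3, 18.1 at Pe day 0 and 8.61 in Mock, and did not pass at Pe day 0 (1.07, SE 0.68, adjusted p = 0.19) in the authors' deposited table; on library totals it was higher (1.74, adjusted p = 0.0179). Reads shared between a subunit gene and its paralog could have been split by the authors' counting, so these values are uncertain.

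Among the 33 nuclear subunits the fall at Pe day 0 went with transcript length. Spearman's rho between the log2 fold change in the authors' deposited table and transcript length was 0.66 across these genes, with the shorter genes lower. For Pe day 3 against Mock rho was 0.25, and for Pe day 3 against Pe day 0 it was -0.44. Across 2639 genes that averaged 1000 or more normalized counts and have an annotated length, rho was 0.28, 0.24 and -0.19. These are correlations across genes of the same libraries, which share depth, base composition and the fitted dispersion and are not independent replicates. ND-75 and ND-51 of the core and ND-39 and ND-42 of the accessory genes were among the longest. The part of length in the result was not tested.

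**Figure D3:**
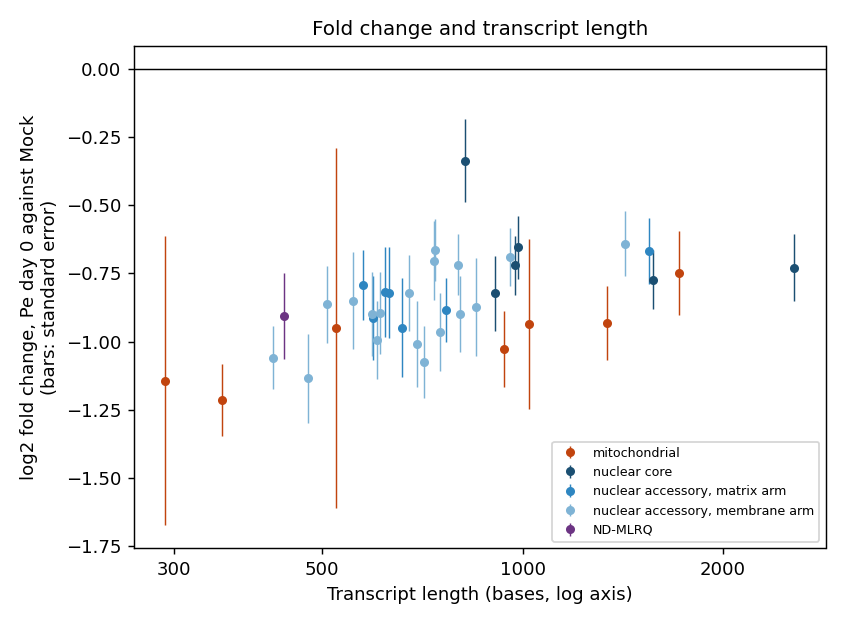
Log2 fold change of Pe day 0 against Mock with its SE, from the authors' deposited table, against transcript length in bases on a log axis, 1 point per gene, for the same 32 nuclear and 7 mitochondrial genes as in the plot of fold changes by gene. Short nuclear genes such as ND-B12 (-1.06) and ND-B15 (-1.13) lie below longer ones such as ND-75 (-0.73).

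Exons of 18 of the 40 nuclear members overlap those of another gene, 16 on the opposite and 4 on the same strand, and the sources used here do not give whether the authors counted by strand. The median log2 fold change at Pe day 0 was -0.86 over the 17 tested members with such an overlap, of which 17 were lower, and -0.72 over the 18 tested members without one, of which 15 were lower, in the authors' deposited table. Only the members without an overlap include tested paralogs, which had few reads and log2 fold changes above 0. These medians were not taken without paralogs, so the members with and without an overlap are not compared like for like.

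**Figure D4:**
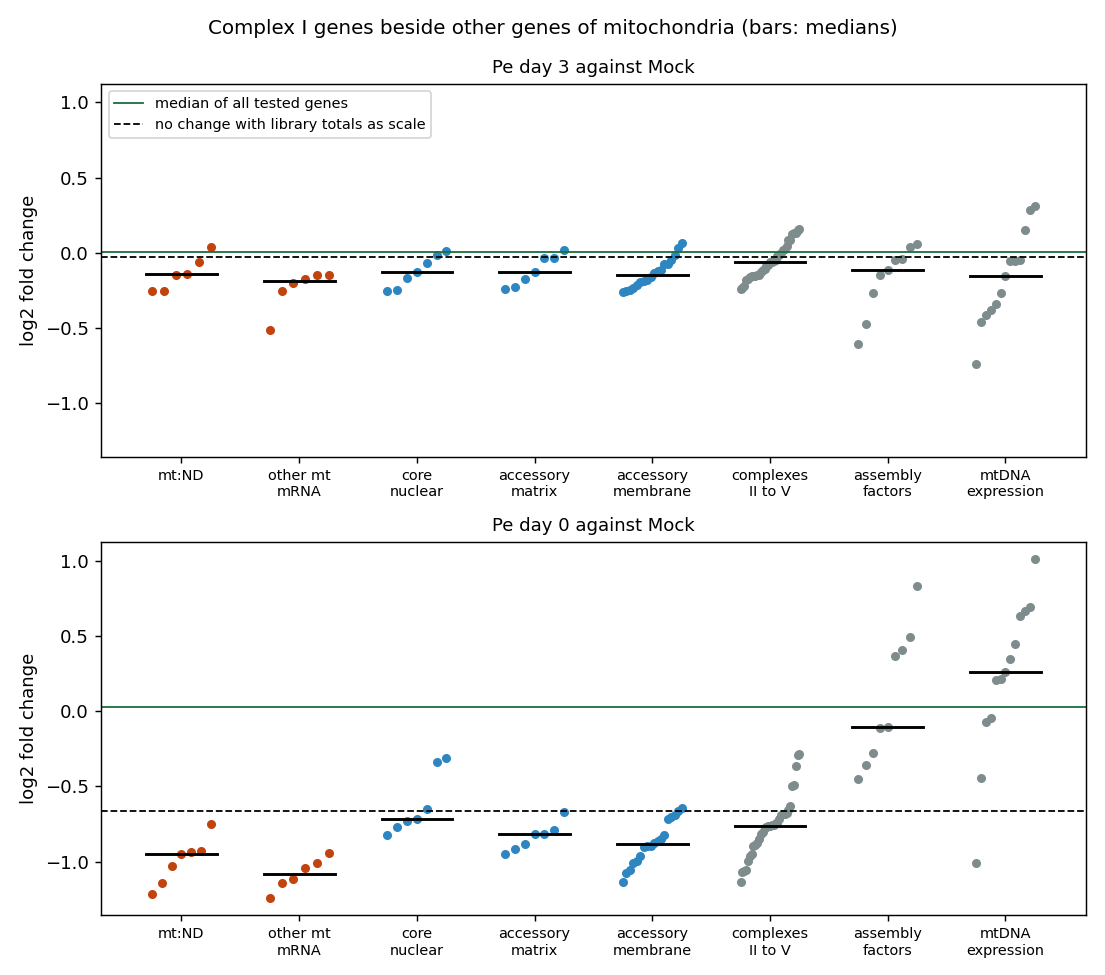
Log2 fold change of complex I genes by role and of related gene lists, with each list's median as a bar, for Pe day 3 (top) and Pe day 0 (bottom) against Mock. The lists of subunits and other mitochondrial messenger RNAs lie between -1.24 and -0.29 at Pe day 0, the assembly factors and mitochondrial DNA expression genes between -1.01 and 1.01.

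Other genes of the respiratory chain moved with complex I at Pe day 0. The other 6 messenger RNAs of the mitochondrial genome, which encode parts of complexes III, IV and V, fell in 6 of 6 cases at a median of -1.08 and rose in 5 of 6 from Pe day 0 to Pe day 3. On library totals 5 of the 6 were still lower at Pe day 0, and 2 of the 6 were higher at Pe day 3 than at Pe day 0. Of all genes 27.4% were higher at Pe day 3 than at Pe day 0 on the authors' scale, and 9.36% on library totals. Of 33 nuclear genes of complexes II to V, 33 fell at a median of -0.76, and on library totals 6 were lower and 2 higher. For Pe day 0 against Mock, 23.6% of all genes were lower on the authors' scale. On library totals 8.97% of all genes were lower and 53.4% higher. The 4 genes of complex II, which has no mitochondrially encoded subunit, fell least, at a median of -0.33. On library totals 2 of these 4 were higher, beside 53.4% of all genes. At -0.29, SdhA (SE 0.12, adjusted p = 0.0298) and SdhB (SE 0.13, adjusted p = 0.0495) were above ND-23 in the authors' deposited table. The 4 complex I subunit genes known by other symbols (NP15.6, CG40472, CG9034 and CG11752) fell in 4 of 4 cases at a median of -0.63 (0 on library totals).

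Genes that build complex I or express the mitochondrial genome had calls in both directions. Of 9 assembly factor genes 3 rose and 1 fell at Pe day 0, at a median of -0.10, where 23.0% of all genes were higher and 23.6% lower. Egm, the counterpart of the human assembly factor ACAD9, had 724 normalized counts at Pe day 3, 1550 at Pe day 0 and 873 in Mock, and rose by 0.83 (SE 0.12, adjusted p = 1.02e-10) in the authors' deposited table, a direction kept on library totals. 140up, the counterpart of TIMMDC1, fell by 0.45 (SE 0.18, adjusted p = 0.0277) in the authors' deposited table and was at 0.22 on library totals, where 7 of the 9 were higher and 0 lower, beside 53.4% and 8.97% of all genes. From Pe day 0 to Pe day 3, 2 rose and 4 fell on the authors' scale, where 27.4% of all genes were higher and 25.3% lower. On library totals 0 rose and 8 fell, beside 9.36% and 63.1% of all genes. Egm was at -1.10 from Pe day 0 to Pe day 3 on the authors' scale (SE 0.12, adjusted p = 7.60e-18 by the Wald test).

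Of 13 genes for the maintenance and expression of mitochondrial DNA, 4 rose and 2 fell at Pe day 0, at a median of 0.26, where 23.0% of all genes were higher and 23.6% lower. On library totals 11 were higher and 0 lower, beside 53.4% and 8.97% of all genes. mtTFB2, a transcription factor of the mitochondrial polymerase, had 131 normalized counts at Pe day 3, 216 at Pe day 0 and 107 in Mock and rose by 1.01 (SE 0.24, adjusted p = 0.000136) in the authors' deposited table. SLIRP2, related to a human stabiliser of mitochondrial messenger RNA, fell by 1.01 (SE 0.26, adjusted p = 0.000420) in the authors' deposited table and did not pass on library totals (-0.34, adjusted p = 0.253). mtRNApol, the polymerase itself, fell by 0.44 (SE 0.18, adjusted p = 0.0361) in the authors' deposited table and was at 0.22 on library totals. Against Mock, 2 of the 13 were lower and 0 higher at Pe day 3, beside 8.92% and 8.75% of all genes. The single-stranded DNA binding protein gene mtSSB was at -0.74 (SE 0.17, adjusted p = 0.000331) in the authors' deposited table. From Pe day 0 to Pe day 3, 1 of the 13 rose and 8 fell (0 and 12 on library totals), where 27.4% of all genes were higher and 25.3% lower (9.36% and 63.1% on library totals).

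Of 4 nuclear regulators, Dref, which binds the DNA replication-related element, rose (0.52, SE 0.13, adjusted p = 0.000212) and ewg, related to human NRF1, fell (-0.45) at Pe day 0 in the authors' deposited table, and ewg was at 0.22 on library totals. srl, the fly PGC-1 coactivator gene, was lower at Pe day 3 than in Mock at -0.59 (SE 0.18, adjusted p = 0.00829) and Dref higher at 0.36 (SE 0.13, adjusted p = 0.0402) in the authors' deposited table.

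Markers of cell types moved in the same libraries. For Pe day 0, their counts stand beside 23.6% of all genes lower and 23.0% higher on the authors' scale. On library totals these shares were 8.97% and 53.4%. Among genes that averaged 1000 or more normalized counts, 47.4% were lower on the authors' scale and 21.0% on library totals. The 5 visceral muscle genes summed to 10311 normalized counts at Pe day 3, 4268 at Pe day 0 and 9892 in Mock, and 5 of 5 fell at Pe day 0, 4 of them also on library totals. The 8 enterocyte genes summed to 1036630 at Pe day 3, 458668 at Pe day 0 and 1154380 in Mock, with 5 lower and 2 higher at Pe day 0 (4 lower and 3 higher on library totals), and the digestive enzyme gene alphaTry made up most of that sum. Of 6 enteroendocrine genes 5 fell at Pe day 0 (2 lower and 1 higher on library totals), and of 4 progenitor genes 3 fell and 1 rose (2 lower and 1 higher on library totals). The 3 yolk protein genes of the fat body and ovary list fell (2 of them on library totals), and its summed level was 6080 at Pe day 3, 1738 at Pe day 0 and 6091 in Mock. The photoreceptor genes summed to 304 at Pe day 3, 15.8 at Pe day 0 and 3.52 in Mock, and the tubule genes to 766 at Pe day 3, 194 at Pe day 0 and 351 in Mock. Against Mock at Pe day 3, 2 of 3 photoreceptor and 0 of 3 tested tubule genes were higher, beside 8.75% of all genes. SEs of the log2 fold change were large for some of them, such as 3.14 for Arr1 and 1.64 for Uro. The testis list summed to 466 at Pe day 3, 469 at Pe day 0 and 491 in Mock, nearly all of it from mia, with Mst84Db, Mst98Ca and nht at 0. The flight muscle list summed to 8233 at Pe day 3, 8367 at Pe day 0 and 7279 in Mock, nearly all of it from Tm1, and Act88F, TpnC4 and fln were each at no more than 2.45 normalized counts in any group. The part of cell composition in the complex I values was not tested.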

How the data were processed

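Libraries were made with the Illumina TruSeq RNA kit from TRIzol-extracted RNA, per the labels' protocols. Per the submitters' processing notes, build BDGP6 and the tools fastp 0.19.5, DESeq2 1.22.0, Salmon 0.11.3 and CASAVA 1.8 were used; their roles and options are not given there. Per the file headers, the deposited table has 1 line per gene: the mean signal (normalized counts) of the libraries and, in each of 2 comparisons, the log2 fold change, its SE, the Wald score, the p-value and its adjusted value. The authors' adjusted p-values cover 10393 genes in the first and 8316 in the second comparison. In both, genes at 0 in one (153 and 652) lay above 0 in the other, so both share a reference group.

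Counts per library had been planned for; the table holds none, so no value per library, SD or left-out library is given. Nothing in the labels says that numbered libraries of a group are separate dissections, so the p-values cover only how these libraries differ, and that may be technical. Size factors were solved from genes with a single read, group levels from the mean and both fold changes, and the dispersion from the deposited SEs. That dispersion allowed the part of the variance due to Mock to be taken out for a 2-sided Wald test of Pe day 3 against Pe day 0, adjusted by Benjamini and Hochberg's method over 8316 genes. Tested on simulated data for that comparison and number of genes, it recovered 44.8% of the 67 genes set to a 1.5-fold change, 73.1% of the 67 set to 2-fold and 95.5% of the 66 set to 4-fold, and it called 6 genes that had not been changed. The simulation changed only those genes and took the dispersion as known. In the data 2279 genes were called higher and 2100 lower, which alters the cut-off of the adjustment. The simulated rates therefore need not hold for the data. Levels per kilobase used the median transcript length of a gene in the BDGP6.54 annotation (Ensembl release 115), a later annotation than may have been used for counting. Python 3.11.15, NumPy 2.4.6, SciPy 1.17.1, pandas 2.3.3 and matplotlib 3.10.9 were used.

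The members and lists were chosen with earlier results of these data known. Human counterparts and the additional assembly factors, other-symbol subunits and complexes II to V were matched through RefSeq synonyms and symbols after the table had been read, and the comparison with genes averaging 1000 or more normalized counts was likewise chosen after seeing the data. Apart from genes not reported here, which are still in the counts and medians, named were all mitochondrial members, the core nuclear subunits, the highest and lowest member of each other role list in each comparison, members called against their list, tested paralogs and, in other lists, the member of smallest p in each direction; further genes were named after their values were seen. Alternatives were other scales between groups, filters on low values, a test against a log2 change of 0.5 and another adjustment. A planned search for promoter motifs was not run.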

Additional observations from a re-analysis of the deposited data

How the results depend on the processing

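No paired analysis was possible because the table holds no values per library, and for the same reason no library was left out in turn. The scale between groups decided most calls. For Pe day 0 against Mock, library totals gave 5 lower and 3 higher nuclear and 2 lower mitochondrial members with medians of -0.16 and -0.28. Totals over nuclear genes gave 6 lower, 2 higher and 2 lower with -0.17 and -0.30. Totals without the 20 most abundant genes gave 18 lower, 1 higher and 3 lower with -0.33 and -0.45. Of all 10393 tested genes, 946 were lower and 5479 higher on totals over nuclear genes. Without the 20 most abundant genes in the totals, 1241 were lower and 4721 higher. For Pe day 3 against Pe day 0, library totals gave 2 higher and 2 lower nuclear and 1 higher mitochondrial member, with medians of 0.075 and 0.24, and totals over nuclear genes the same counts with 0.081 and 0.25. Totals without the 20 most abundant genes gave 18 and 2 higher with 0.29 and 0.46. Of all 8316 tested genes, 782 were higher and 5222 lower on totals over nuclear genes. Without the 20 most abundant genes in the totals, 1169 were higher and 4253 lower. A test against a log2 change of 0.5 left 13 nuclear and 3 mitochondrial members lower at Pe day 0, and 5 and 2 higher from Pe day 0 to Pe day 3. The share of all genes that passed this test is not given here, so these counts cannot be set against it. With each gene's longest transcript the nuclear median per kilobase was 2401 at Pe day 3 and 1532 at Pe day 0. The filters on low values and the Benjamini-Yekutieli adjustment kept every count within 1.5 times, and the 0 calls at Pe day 3 against Mock held under each alternative run. Group means have no measured spread between libraries, which limits every statement on levels.

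Among the genes given by name, these directions reversed; the other scale is by construction a shift of all genes. With library totals, at Pe day 0 against Mock, ND-23 was at 0.33, ND-24 at 0.013, ND-42 at 0.026 and ND-ACP at 0.0039. At Pe day 3 against Pe day 0, ND-20 was at -0.071, ND-23 at -0.47, ND-24 at -0.11, ND-30 at -0.16, ND-39 at -0.19, ND-ACP at -0.19, ND-B14.5B at -0.0040 and mt:ND5 at -0.031, and ND-75 was at 0.013 at Pe day 3 against Mock. With totals over nuclear genes, at Pe day 0, ND-23 was at 0.32, ND-24 at 0.00043 and ND-42 at 0.013. At Pe day 3 against Pe day 0, ND-20 was at -0.064, ND-23 at -0.46, ND-24 at -0.11, ND-30 at -0.16, ND-39 at -0.19, ND-ACP at -0.18 and mt:ND5 at -0.024, and ND-75 was at 0.0070 at Pe day 3 against Mock. Without the 20 most abundant genes, ND-23 was at 0.16 at Pe day 0 and at -0.26 at Pe day 3 against Pe day 0. At Pe day 3 against Mock, ND-75 was then at 0.056, ND-B14.5A at 0.040 and mt:ND2 at 0.012.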
